A study of Mus musculus with 4 samples.

Results

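The 6 genes described here encode the neutrophil chemokines Cxcl1, Cxcl2 and Cxcl3, the cytokine G-CSF (Csf3), the chemokine receptor Cxcr2 and the G-CSF receptor Csf3r. They were chosen by name, as ligands and receptors of neutrophil recruitment, with earlier results of these data known. They are 6 of the 30408 genes listed in the data. Single-cell RNA sequencing on the BD Rhapsody microwell system had been done on live cells sorted by CD45, the surface protein of leukocytes, from MB49 tumours grown in mice of both sexes. MB49 is a mouse bladder carcinoma line that came from a male mouse, so tumours in both sexes grew from male cells. The 4 libraries were male CD45+, female CD45+, male CD45- and female CD45-. There was 1 library for each combination, so no difference between the sexes had a replicate check, and host sex cannot be told apart from any other difference between the libraries. The sources used here do not give strain, age or the number of mice behind each library, and no group had a further treatment or allele in the labels. The series was set up to ask how the immune system bears on the sex difference in tumour progression.

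Cxcl1, Cxcl2 and Cxcl3 bind Cxcr2, a G-protein-coupled receptor that draws neutrophils out of the blood along a chemokine gradient. G-CSF drives the making and release of neutrophils in the bone marrow through Csf3r, a receptor that signals by JAK and STAT proteins. Epithelial and stromal cells and macrophages make these ligands when NF-kB is switched on by interleukin 1, TNF or microbial products, and the messages are short-lived.

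The 3 chemokine genes lie close together on chromosome 5, all on the plus strand. In GENCODE M21 on mm10, Cxcl3 spans 90786103 to 90789600, Cxcl1 spans 90891241 to 90893115 and Cxcl2 spans 90903871 to 90905938. Csf3 lies on chromosome 11 from 98701263 to 98703629, Cxcr2 on chromosome 1 from 74153989 to 74161246 and Csf3r on chromosome 4 from 126024550 to 126044440. The promoters of the 3 chemokine genes are shown because Cxcl1 and Cxcl2, and Cxcl1 and Cxcl3, were seen together in the same phagocytes and all 3 promoters share a pair of short motifs. Each line gives 180 bases, 200 to 21 bases before the RefSeq start on GRCm38.p6, plus strand, 5′ to 3′. Capitals mark GGGAATTTCCC, the longest run found in all 3, which has the form of an NF-kB site, and ATAAAAGG, a TATA-like motif.
Cxcl3, chr5:90785901-90786080: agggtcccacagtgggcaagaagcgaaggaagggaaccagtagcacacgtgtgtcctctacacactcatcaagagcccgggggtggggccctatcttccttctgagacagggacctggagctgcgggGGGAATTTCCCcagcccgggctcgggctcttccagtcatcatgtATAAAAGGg
Cxcl1, chr5:90891045-90891224: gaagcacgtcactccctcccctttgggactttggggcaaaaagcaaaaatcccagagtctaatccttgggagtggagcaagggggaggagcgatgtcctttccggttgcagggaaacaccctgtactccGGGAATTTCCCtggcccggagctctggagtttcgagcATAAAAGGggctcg
Cxcl2, chr5:90903699-90903878: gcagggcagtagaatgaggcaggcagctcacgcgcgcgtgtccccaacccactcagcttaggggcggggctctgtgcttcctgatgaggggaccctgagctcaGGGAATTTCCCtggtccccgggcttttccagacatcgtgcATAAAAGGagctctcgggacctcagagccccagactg
The NF-kB-type run began 73, 71 and 97 bases before the start of Cxcl3, Cxcl1 and Cxcl2. The TATA-like motif began 29, 34 and 57 bases before it, in the same order. The Cxcl2 stretch, counted from the RefSeq start, ends at 90903878, past the GENCODE start of 90903871. The larger distances of Cxcl2 therefore depend on which start is used. Searched on both strands of 300-base RefSeq promoter windows, GGGAATTTCCC was found in 14 of 32851 promoters, or 0.0426%. The run was picked because the 3 chemokine promoters share it, and they are among the 14. Its rarity is therefore no test of enrichment. ATAAAAGG was found in 577 of them, or 1.76%. Promoters were matched for 5 of the 6 genes, all but Csf3. Neither motif was found in the same 180 bases of Cxcr2 or Csf3r. The Csf3r stretch, 126024459 to 126024638, runs past the GENCODE start of 126024550, so part of it lies within the gene. A match is a run of letters and not a measured binding site.

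The cells were first assigned to classes from marker genes that did not include any of the 6. After filters on depth and quality, 5379 male and 4595 female CD45+ cells and 5496 male and 3905 female CD45- cells were kept. Deposited totals ranged from 37705608 to 62273035 UMIs (unique molecular identifiers, counts of captured mRNA molecules) per library. Kept cells had a median of 5980 (male) and 6047 (female) UMIs in the CD45+ gate, and of 9919 (male) and 10598 (female) in the CD45- gate. Ptprc, which encodes CD45, was at 742 and 648 CPM (the gene's UMIs per 1000000 UMIs summed) in male and female CD45+ cells, and at 1.79 and 1.35 CPM in male and female CD45- cells. Cell names are running numbers, so libraries share between 5152 and 5771 names, but 0 cells had identical profiles in any pair of libraries.

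Neutrophils made up 11.2% of the kept male CD45+ cells (603 cells, interval 10.4 to 12.1) and 3.70% of the female ones (170 cells, 3.17 to 4.29). Intervals are at 95% throughout and cover counting error only. Neutrophils held little RNA, with medians of 1235 UMIs in male and 1196 UMIs in female cells. Their defining genes S100a8 and S100a9 summed to 16622 CPM in male and 11745 CPM in female neutrophils. In phagocytes, the class of macrophages and monocytes, the same sum was 73.3 CPM in the male library, against 42.7 CPM in the female one. Of the 10 genes with the highest fold in neutrophils over the other CD45+ cells, 5 were markers from the fixed list in each library. S100a8, S100a9, Retnlg and G0s2 were among them in both. The same count was 0 of 10 in male and in female phagocytes, 2 in male carcinoma cells and 0 in female ones. Cells were gated on these lists, so the counts describe the classes and do not check them. Complement C1q genes, which phagocytes make, still summed to 620 CPM in male and 1257 CPM in female neutrophils, against 11300 and 9596 CPM in male and female phagocytes. Free RNA from other cells was therefore estimated and is given where it bears on a value.

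Phagocytes were 2403 male and 2918 female cells, with a median of 10750 and 8678 UMIs. Carcinoma cells, gated on keratins such as Krt8 and Krt18, were 4462 male and 3366 female cells of the CD45- gate. Their median depths were 11263 and 11387 UMIs. The other classes used here were T cells (873 male, 444 female), type 2 dendritic cells or cDC2 (161 male, 75 female), mature dendritic cells (130 male, 70 female), NK cells (130 male, 88 female) and fibroblasts (18 male, 54 female). The 18 male fibroblasts are below the minimum of 20 cells set for a class, and their values are given as a description only. In bulk sums over a whole gate, fewer cells of a type and less RNA per cell cannot be told apart, so values are given per class.

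**Figure D1:**
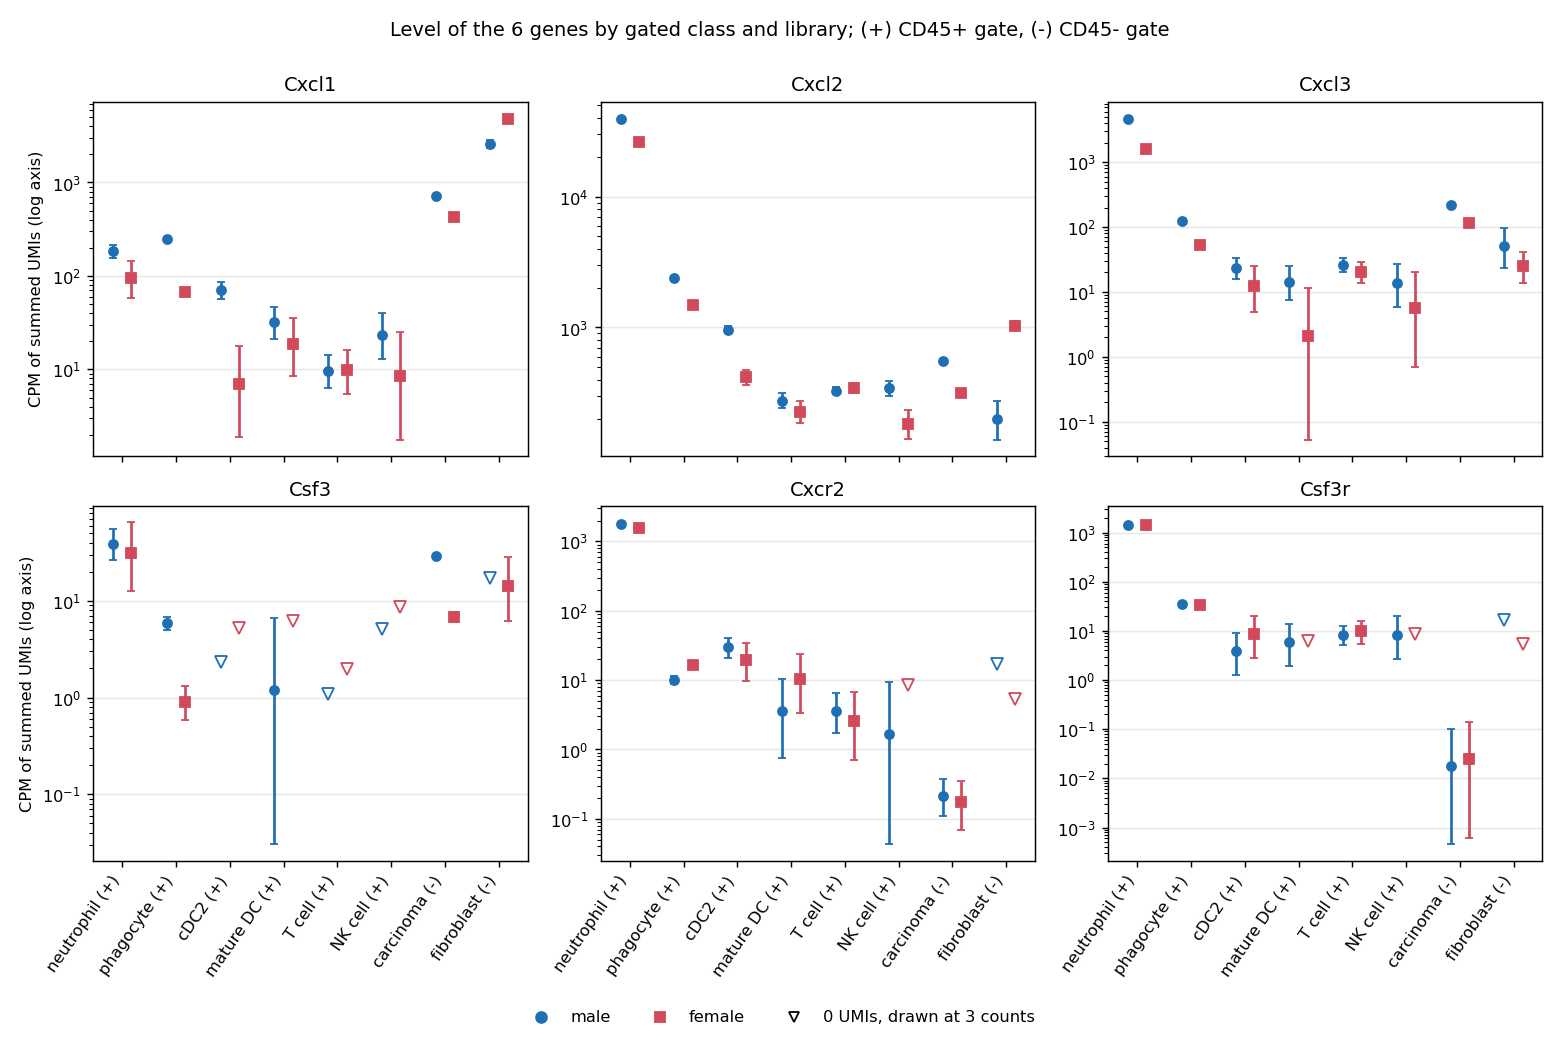
CPM of summed UMIs of the 6 genes (log axis, 1 panel a gene) in 8 gated classes, with male libraries as circles left of female libraries as squares. Bars are 95% Poisson intervals and open triangles mark classes with 0 UMIs, drawn at 3 counts. Cxcr2 and Csf3r stand far higher in neutrophils than in the other 7 classes, Cxcl1 stands highest in fibroblasts, and Csf3 is seen in neutrophils, phagocytes and carcinoma cells of both libraries.

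Cxcl1 was a transcript of the CD45- cells. This chemokine, known as KC in the mouse, was at 722 CPM in male and 424 CPM in female carcinoma cells. Among CD45+ cells it was at 248 CPM in male and 67.9 CPM in female phagocytes, and at 183 CPM in male and 94.0 CPM in female neutrophils. The highest levels were in the few fibroblasts, at 2593 CPM in the male library, against 4724 CPM in the female one. Carcinoma cells nevertheless held most of the gate's Cxcl1, with 88.9% of the male and 81.1% of the female CD45- UMIs. Female fibroblasts held 12.4% and male fibroblasts 1.01%.

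In T cells, taken as the level that free RNA gives, Cxcl1 was at 9.70 CPM in the male library, against 9.76 CPM in the female one. The order of levels among the leukocyte classes with at least 20 male CD45+ cells was phagocytes, neutrophils, cDC2 at 70.0 CPM, mature dendritic cells at 32.4 CPM, type 1 dendritic cells at 25.4 CPM, NK cells at 23.6 CPM and T cells. The intervals of mature dendritic cells (21.3 to 47.1), type 1 dendritic cells (18.6 to 33.9) and NK cells (12.9 to 39.7) overlapped. In the female library, neutrophils (58.2 to 144) and phagocytes (65.0 to 71.0) overlapped. Mature dendritic cells came next at 18.6 CPM (8.52 to 35.4), below phagocytes with no overlap, and T cells, NK cells and cDC2 followed, each overlapping its neighbour. The neutrophil level over the phagocyte level was 0.737 (0.623 to 0.866) in the male library, against 1.38 (0.854 to 2.12) in the female one. The female neutrophil value rests on 21 UMIs, of which 1 cell held 47.6%.

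Cxcl1 was carried by a minority of immune cells and a majority of carcinoma cells. It was detected in 26.3% of male (24.5 to 28.1) and 16.9% of female (15.5 to 18.3) phagocytes. With every cell thinned to 500 UMIs, these shares were 7.596% and 2.55%. Carcinoma cells had Cxcl1 in 67.3% of male and 64.3% of female cells, or 20.5% and 14.5% after thinning. T cells, at median depths of 2337 and 2670 UMIs, had it in 2.75% of male and 3.15% of female cells, or 0.449% and 0.467% after thinning. The UMIs were unevenly spread, with 85.3% of male and 89.9% of female phagocyte Cxcl1 in the 10% of cells that held the most. In carcinoma cells the top 10% held 58.8% and 58.9%.

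Cxcl2, known as MIP-2 and often made by neutrophils themselves, was highest in neutrophils. It reached 39411 CPM in male (38982 to 39843) and 26246 CPM in female (25579 to 26927) neutrophils. Phagocytes had 2383 and 1472 CPM in the male and female libraries. Carcinoma cells had 556 and 314 CPM, and T cells 330 and 343 CPM. The neutrophil level was 16.5 times the phagocyte level in the male library, against 17.8 times in the female one. Nearly all neutrophils carried it, 99.5% of male and 94.7% of female cells, and 98.6% and 93.0% after thinning to 500 UMIs.

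Although their level per UMI was lower, phagocytes held more of the gate's Cxcl2 than neutrophils did. They held 56.7% in the male and 76.7% in the female CD45+ library. Neutrophils held 29.8% and 10.5%. For T cells, the free RNA expected from neutrophils (scaled by S100a8 and S100a9) and phagocytes (scaled by C1q) came to 215 CPM for male and 256 CPM for female cells, beside the 330 and 343 CPM measured. Levels in mature dendritic cells (276 and 228 CPM), NK cells (343 and 182 CPM) and T cells were in the same range. Free RNA would give 143 CPM in male and 224 CPM in female mature dendritic cells, 51.7% and 98.4% of the level. In NK cells it would give 201 CPM (male) and 256 CPM (female), 58.6% and 141% of the level. The part of free RNA was not tested beyond these estimates.

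Cxcl3, the least studied of the 3 chemokines in mice, was likewise highest in neutrophils. Neutrophils had 4657 CPM in the male library, against 1624 CPM in the female one, and phagocytes 123 and 52.5 CPM. The ratio of neutrophils over phagocytes was 37.7 in the male library, against 30.9 in the female one. Carcinoma cells had 218 and 115 CPM, above phagocytes in both sexes. T cells had 26.2 and 20.2 CPM.

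Unlike Cxcl2, Cxcl3 was found in only a part of the neutrophils. It was detected in 64.5% of male (60.5 to 68.3) and 37.6% of female (30.3 to 45.4) neutrophils. Thinned to 500 UMIs, the shares were 54.5% and 28.7%. The 10% of neutrophils with most Cxcl3 held 47.4% of its UMIs in the male library, against 67.5% in the female one. Neutrophils held 47.1% of the gate's Cxcl3 in the male and 15.3% in the female CD45+ library, while phagocytes held 39.3% and 64.0%. In the CD45- gate, carcinoma cells held 93.6% in both libraries. Cxcl2 and Cxcl3 transcripts share an exact run of 110 bases, and 16 bases at most within their last 400 bases, so reads from outside the 3′ end could be split between them.

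Csf3 was rare in every class, and carcinoma cells gave most of its UMIs. Male carcinoma cells had 1625 UMIs, or 29.0 CPM (27.6 to 30.5), and female carcinoma cells 274 UMIs, or 6.75 CPM (5.97 to 7.59). It was detected in 13.1% of male and 4.10% of female carcinoma cells, or 1.27% and 0.307% after thinning to 500 UMIs. The top 10% of carcinoma cells held 91.4% and 100% of its UMIs. Phagocytes had 151 and 26 UMIs, or 5.85 CPM (4.95 to 6.86) in the male library, against 0.896 CPM (0.585 to 1.31) in the female one. T cells had 0 UMIs in both libraries, which at 3 counts allows up to 1.08 CPM in male and 1.95 CPM in female T cells, so the female phagocyte level is below what T cells could have shown.

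The neutrophil value of Csf3 rested on few cells. Male neutrophils had 32 UMIs, or 39.0 CPM (26.7 to 55.1), and female neutrophils had 7 UMIs, or 31.3 CPM (12.6 to 64.5). A single female cell held 85.7% of the 7 UMIs. G-CSF acts at a distance, on the bone marrow, and its level in these tumours says nothing of the level in blood.

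**Figure D2:**
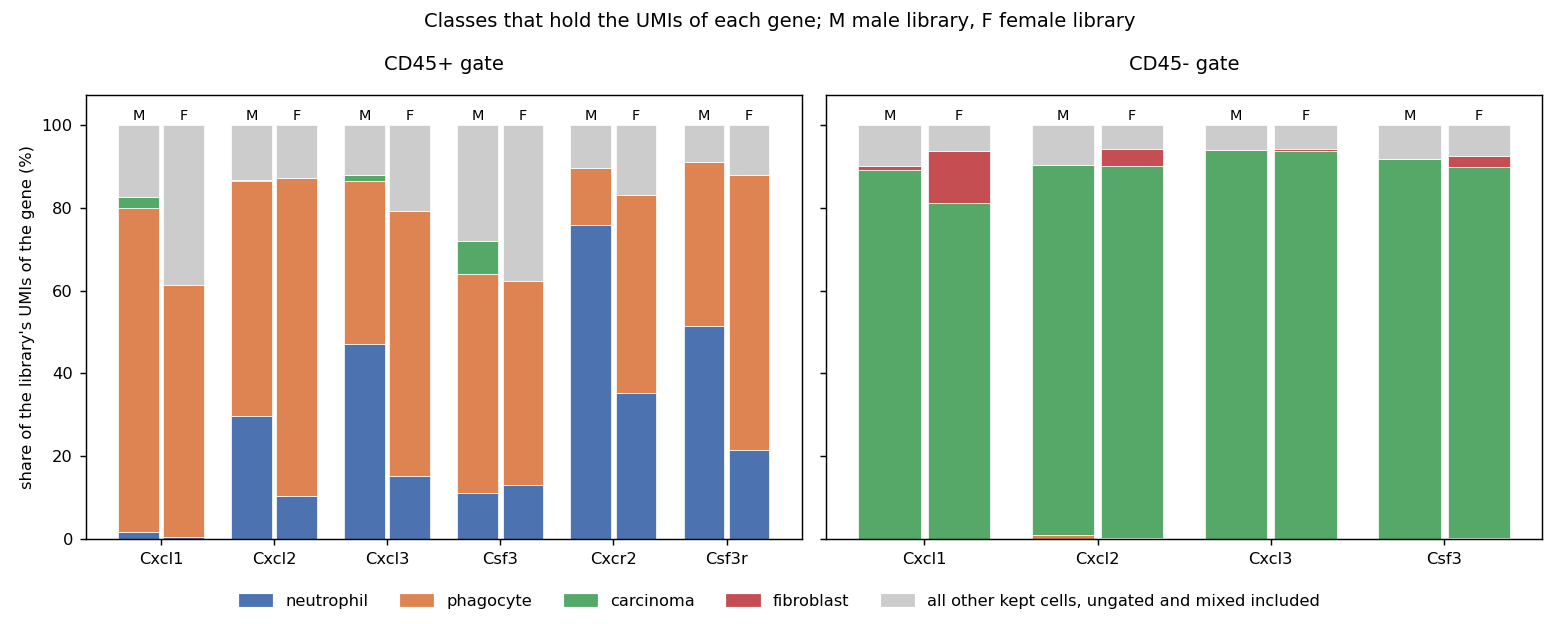
Share of each library's UMIs of a gene (vertical axis, %) held by neutrophils, phagocytes, carcinoma cells, fibroblasts and all other kept cells, with the male bar left of the female bar, in the CD45+ gate (left) and the CD45- gate (right). Neutrophils hold 75.9% of Cxcr2 in the male and 35.2% in the female CD45+ library, and carcinoma cells hold 81.1% to 93.6% of each ligand in the CD45- gate.

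Cxcr2 was a neutrophil transcript. Neutrophils had 1784 CPM (1694 to 1878) in the male library, against 1570 CPM (1410 to 1744) in the female one. Phagocytes had 10.1 CPM (8.92 to 11.4) and 16.4 CPM (14.997 to 18.0). Neutrophils exceeded phagocytes 177 times (155 to 202) in the male library, against 95.5 times (83.0 to 110) in the female one, and T cells 497 and 604 times. A UMI of Cxcr2 was seen in 69.3% of male and 59.4% of female neutrophils, or 48.8% and 41.1% after thinning to 500 UMIs. The unthinned shares in T cells were 0.573% of male and 0.676% of female cells.

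Outside neutrophils, cDC2 had the highest Cxcr2 of the classes with at least 20 cells. They had 38 UMIs, or 29.9 CPM (21.1 to 41.0), in the male and 11 UMIs, or 19.2 CPM (9.59 to 34.4), in the female library. Free RNA of neutrophils and phagocytes would give 3.46 and 5.19 CPM there. In the male library 12.4% of cDC2 had a UMI, and in the female library 5.33%, with 1 cell holding 45.5% of the female UMIs. The cDC2 interval did not overlap that of phagocytes in the male library and did in the female library.

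The carcinoma cells had almost no receptor transcripts. Male carcinoma cells had 12 UMIs of Cxcr2 and 1 of Csf3r, and female carcinoma cells had 7 and 1. Cxcr2 was at 0.214 CPM in male and 0.172 CPM in female carcinoma cells. The whole male and female CD45- libraries had 12 Cxcr2 UMIs each, and 5 of the female UMIs were in 8 phagocytes that passed the CD45- sort. Fibroblasts had 0 UMIs of either receptor.

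Csf3r was highest in neutrophils and present at a lower level in phagocytes. Neutrophils had 1427 CPM (1346 to 1511) in the male library, against 1445 CPM (1292 to 1612) in the female one, and phagocytes 35.04 CPM (32.8 to 37.4) and 34.2 CPM (32.1 to 36.4). Neutrophils exceeded phagocytes 40.7 times in the male library, against 42.3 times in the female one. It was detected in 74.6% of male and 76.5% of female neutrophils, or 48.6% and 48.4% after thinning. In phagocytes it was detected in 25.5% and 23.4% of cells, or 1.84% and 1.96% after thinning. T cells had a UMI in 1.49% and 3.15% of cells, or 0.343% and 0.460% after thinning.

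Neutrophil RNA, scaled by S100a8 and S100a9, would give 6.29 CPM of Csf3r in male and 5.25 CPM in female phagocytes, 18.0% and 15.4% of the phagocyte level. For Cxcr2 it would give 7.86 and 5.71 CPM, 77.8% of the male and 34.7% of the female phagocyte level. The part of free RNA in the phagocyte levels was not tested beyond these estimates. The levels of Csf3r in cDC2 (3.93 and 8.73 CPM) were close to the free RNA estimates of 3.90 and 7.003 CPM.

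Neutrophils held a larger share of the receptor UMIs of male than of female CD45+ cells, beside their 11.2% of male and 3.70% of female cells. Neutrophils held 75.9% of the Cxcr2 UMIs in the male library, against 35.2% in the female one, and phagocytes 13.5% and 47.8%. Neutrophils held 51.3% of Csf3r in the male library, against 21.6% in the female one, and phagocytes 39.7% and 66.3%. Cells that passed no gate held 2.90% of Cxcr2 in the male library, against 11.8% in the female one.

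The male and female libraries were then compared within each class. In phagocytes all 4 ligand genes were higher in the male library, and Cxcr2 was lower by an amount that varied with the gate. Cxcl1 was 3.65 times as high (3.47 to 3.85), Cxcl2 1.62 times (1.60 to 1.64) and Cxcl3 2.35 times (2.21 to 2.50), with the levels given above. Csf3 was 6.53 times as high (4.28 to 10.3), from 151 male and 26 female UMIs. Its ratio was 3.22 (1.71 to 6.22) in the subset with Slc7a2 and Mmp13 and 4.22 (2.08 to 9.99) outside it. Both values lie below that of the whole class. In the subset with Retnla and Mgl2 it was 8.79 (4.74 to 17.8), and 4.31 (2.42 to 8.24) outside. The intervals inside and outside the subset overlapped in each split. Cxcr2 had a male:female ratio of 0.615 (0.527 to 0.716), from 261 male and 477 female UMIs, but the size of this ratio was not settled. With the neutrophil RNA estimate given above taken off, 2.24 CPM was left in male and 10.7 CPM in female phagocytes, a ratio of 0.209. With stricter gates, which kept 1939 male and 1727 female phagocytes, its log2 was -0.084 (-0.36 to 0.19), an interval that holds 0, against -0.70 with the gates used here. With clusters in place of gates it was -1.30 (-1.55 to -1.06). Csf3r had a ratio of 1.03 (0.936 to 1.12), an interval that holds 1.

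Genes were eligible for counts with 100 or more UMIs over both sexes and 10 or more CPM in either. Of the 5 genes eligible in phagocytes, 2, Cxcl1 and Cxcl3, were higher by 2-fold or more in males and 0 in females. The same held for 1.41% (male) and 1.62% (female) of all 7534 eligible genes. The median log2 ratio of the 5 genes was 0.69, against -0.02 over all eligible genes. Cxcl1 stood at percentile 99.7 of the ratios of eligible genes, Cxcl3 at 99.2, Cxcl2 at 96.2 and Cxcr2 at 3.40. Csf3 did not reach 10 CPM and is not in these counts.

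**Figure D3:**
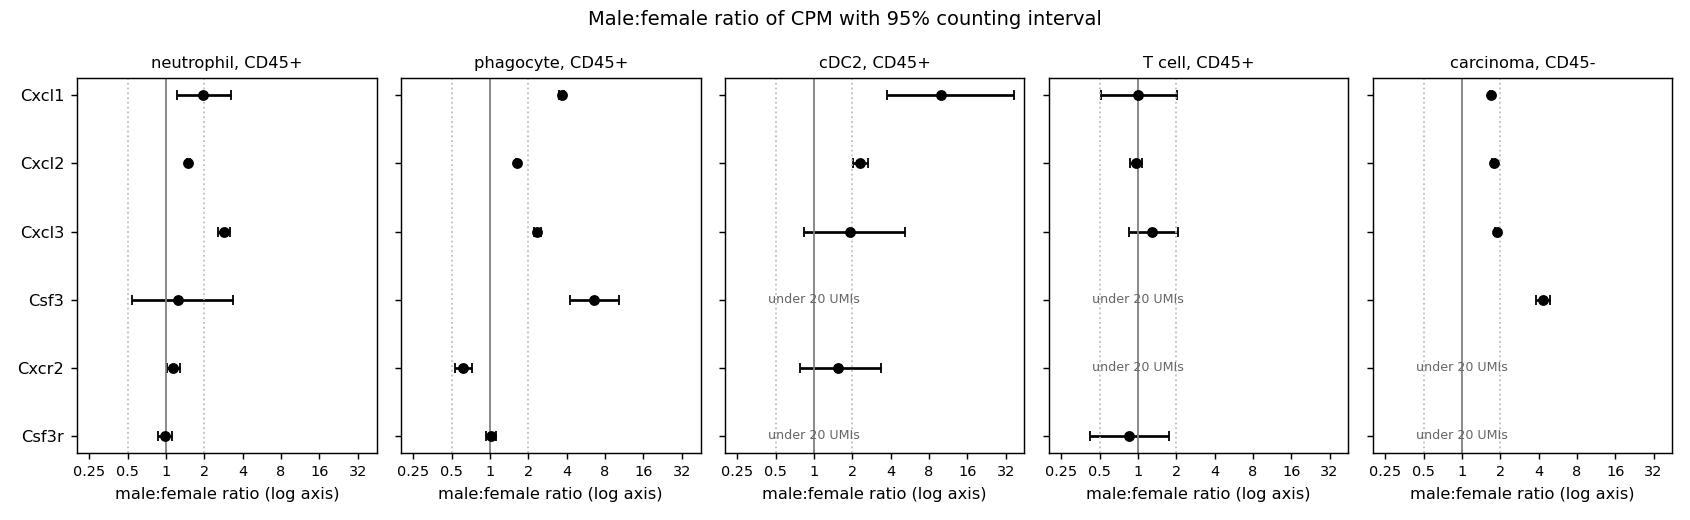
Male:female ratio of CPM (horizontal log axis, no unit) of the 6 genes in 5 classes, with 95% counting intervals. The solid line marks equal levels and dotted lines mark 2-fold in either direction. The chemokine points lie right of 1 in neutrophils, phagocytes and carcinoma cells, T cell points lie around 1, and Cxcr2 in phagocytes lies left of 1 at 0.615.

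In neutrophils, with the gates used here, the 3 chemokines were higher in the male library and the receptors were near equal. Cxcl3 had a male:female ratio of 2.87 (2.57 to 3.20) and Cxcl2 of 1.502 (1.46 to 1.54). Cxcl1 had a ratio of 1.95 (1.23 to 3.24), from 150 male and 21 female UMIs. Cxcr2 had a ratio of 1.14 (1.01 to 1.28) and Csf3r of 0.987 (0.872 to 1.12). The Csf3 ratio of 1.25 had an interval of 0.540 to 3.34, so no difference was detectable at this depth.

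Of 5 eligible genes in neutrophils, 1, Cxcl3, was higher by 2-fold or more in males and 0 in females, against 1.54% and 2.65% of 1360 eligible genes. The median log2 ratio of the 5 was 0.59, and -0.03 over all eligible genes. Cxcl3 stood at percentile 99.9, Cxcl2 at 94.6, Cxcr2 at 71.99 and Csf3r at 50.8. With classes taken from clusters in place of gates, which gave 740 male and 217 female neutrophils, the log2 ratio of Cxcr2 turned to -0.12 (-0.28 to 0.04), so its direction is not settled. That of Csf3r was -0.39 (-0.55 to -0.23) with clusters, an interval below 0, against -0.02 (-0.20 to 0.16) with the gates.

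In carcinoma cells, the same male line in both hosts, all 4 ligands were higher in the male library. Csf3 was 4.31 times as high (3.79 to 4.91). Cxcl1 was 1.70 times as high (1.67 to 1.73), Cxcl2 1.77 times (1.74 to 1.81) and Cxcl3 1.89 times (1.83 to 1.95). Of the 4 eligible genes 1, Csf3, was higher by 2-fold or more in males and 0 in females, against 1.4% and 1.62% of 8273 eligible genes. The median log2 ratio was 0.87, and -0.01 over all eligible genes. Csf3 stood at percentile 99.8 and Cxcl1 at 97.7. Csf3 reached the 10 CPM minimum only in the male library, at 29.0 CPM against 6.75 CPM in the female one. Its place in the count, the median and the percentiles is therefore partly set by that filter.

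Of the smaller classes, cDC2 had Cxcl1 at 70.0 CPM in the male library, against 6.99 CPM in the female one. The female value rests on 4 UMIs, and the ratio of 10.0 had an interval of 3.78 to 37.6. Only 18 of the 161 male cDC2 had a Cxcl1 UMI, and the top 10% of cells held 98.9% of the male UMIs. Free RNA of neutrophils and phagocytes would give 10.7 CPM of Cxcl1 in male and 8.13 CPM in female cDC2, 15.3% of the male and 116% of the female level, so the female level is within background. Cxcl2 in cDC2 was at 964 and 417 CPM, a ratio of 2.31 (2.01 to 2.66), and was the 1 eligible gene there, against 1.99% of 2810 eligible genes at least 2-fold higher in male and 1.92% in female cDC2. T cells did not separate by their intervals, with male:female ratios of 0.994 (0.510 to 2.01) for Cxcl1, 0.963 (0.864 to 1.07) for Cxcl2 and 1.30 (0.843 to 2.05) for Cxcl3. For Cxcl2 in cDC2 free RNA would give 17.3% of the male and 54.3% of the female level. Without it 797 CPM in male and 191 CPM in female cDC2 were left, a ratio of 4.18. Cxcl2 was detected in 67.7% of male and 82.7% of female cDC2, or 21.9% and 17.1% after thinning to 500 UMIs. The top 10% of cDC2 held 65.9% of the male and 52.7% of the female Cxcl2 UMIs. NK cells had Cxcl2 at 343 and 182 CPM, a ratio of 1.88 (1.41 to 2.53), but 1 male cell held 50.7% of the male UMIs. Free RNA would give 201 CPM of Cxcl2 in male and 256 CPM in female NK cells, so the female level is within background.

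Fibroblasts stood the other way for Cxcl1 and Cxcl2. Cxcl1, at 2593 CPM in 18 male fibroblasts and 4724 CPM in 54 female fibroblasts, had a male:female ratio of 0.549 (0.496 to 0.607). Cxcl2 was at 199 and 1033 CPM, a ratio of 0.192 (0.133 to 0.270). A single male cell held 28.9% of the male Cxcl1 UMIs. The fibroblast level of Cxcl1 was 3.59 times that of carcinoma cells in males and 11.1 times in females. The 9 male pericytes had Cxcl1 at 3134 CPM, 56.4% of it in 1 cell.

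Whole-gate sums, which mix classes, gave male:female ratios in CD45+ cells of 2.34 (2.25 to 2.44) for Cxcl1, 1.81 for Cxcl2, 3.16 for Cxcl3, 5.00 for Csf3 (3.72 to 6.84), 1.79 for Cxcr2 and 1.41 for Csf3r. The receptor ratios of the whole gate stand beside ratios near 1 within marker-gated neutrophils. The neutrophil share was 11.2% in the male library, against 3.70% in the female one.

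Neutrophils were split by markers into a mature circulating type, marked by genes such as Retnlg, Mmp8 and Ly6g, and the rest. The mature type had 189 male and 44 female cells. In it Cxcr2 was higher than in the rest, at 2672 against 1303 CPM in males, and 2065 against 1362 CPM in females. Cxcl3 was also higher, at 6769 against 3513 CPM in males, and 2667 against 1184 CPM in females. Cxcl2 was lower, at 36683 against 40890 CPM in males, and 18958 against 29324 CPM in females. These directions were alike in both libraries, whereas Csf3r was higher in the male mature type (1655 against 1303 CPM) and near equal in the female one (1432 against 1451 CPM).

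A second split took neutrophils with inflammatory cytokine genes, Ccl3, Ccl4, Tnf and Il1a, with 382 male and 113 female cells. Here Cxcl2 was at 44963 against 28221 CPM in males, and 30935 against 15856 CPM in females. Cxcl1 was at 248 against 51.5 CPM and at 130 against 14.4 CPM. Cxcr2 was lower in these cells, at 1483 against 2390 CPM in males, and 1234 against 2317 CPM in females, and so was Csf3r, at 1301 against 1681 CPM and 1201 against 1986 CPM. Cxcl3 differed little across this split, at 4671 against 4630 CPM and 1656 against 1554 CPM. The 2 splits overlap, since a cell can carry both sets of markers.

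The male excess of Cxcl3 was seen within each split. Its male:female ratio was 2.54 (2.18 to 2.98) in the mature type and 2.97 (2.55 to 3.47) in the rest. For Cxcr2 the ratio was 1.29 (1.08 to 1.56) in the mature type and 0.957 (0.820 to 1.12) in the rest. For Cxcl2 it was 1.93 (1.83 to 2.05) in the mature type and 1.39 (1.35 to 1.44) in the rest.

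Cxcl3 and Csf3r were seen more often in neutrophils with a Cxcr2 UMI than in those without. Thinned to 500 UMIs, Cxcl3 was seen in 63.3% of male neutrophils with a Cxcr2 UMI and 46.1% of those without, and in 35.4% and 24.0% of female ones. Cells with Cxcr2 were somewhat deeper, with a median of 1296 against 1140 UMIs in males, and 1314 against 1054 UMIs in females. Csf3r was seen in 53.4% of male neutrophils with Cxcr2 and 44.1% of those without, and in 56.6% and 42.6% of female ones. Cxcl1 ran the other way in the male library, where it was seen in 2.83% of neutrophils with Cxcr2 and 5.47% of those without, against 2.34% and 1.795% in the female one. Csf3 was seen in 1.41% and 1.58% of male and in 1.28% and 0.382% of female neutrophils with and without Cxcr2. The female Csf3 shares rest on 2 cells, and without thinning they ran the other way, at 0.990% and 1.45%. Cxcl2 was near its ceiling in both, at 98.8% with and 98.4% without Cxcr2 in the male library and 94.9% and 91.6% in the female library.

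**Figure D4:**
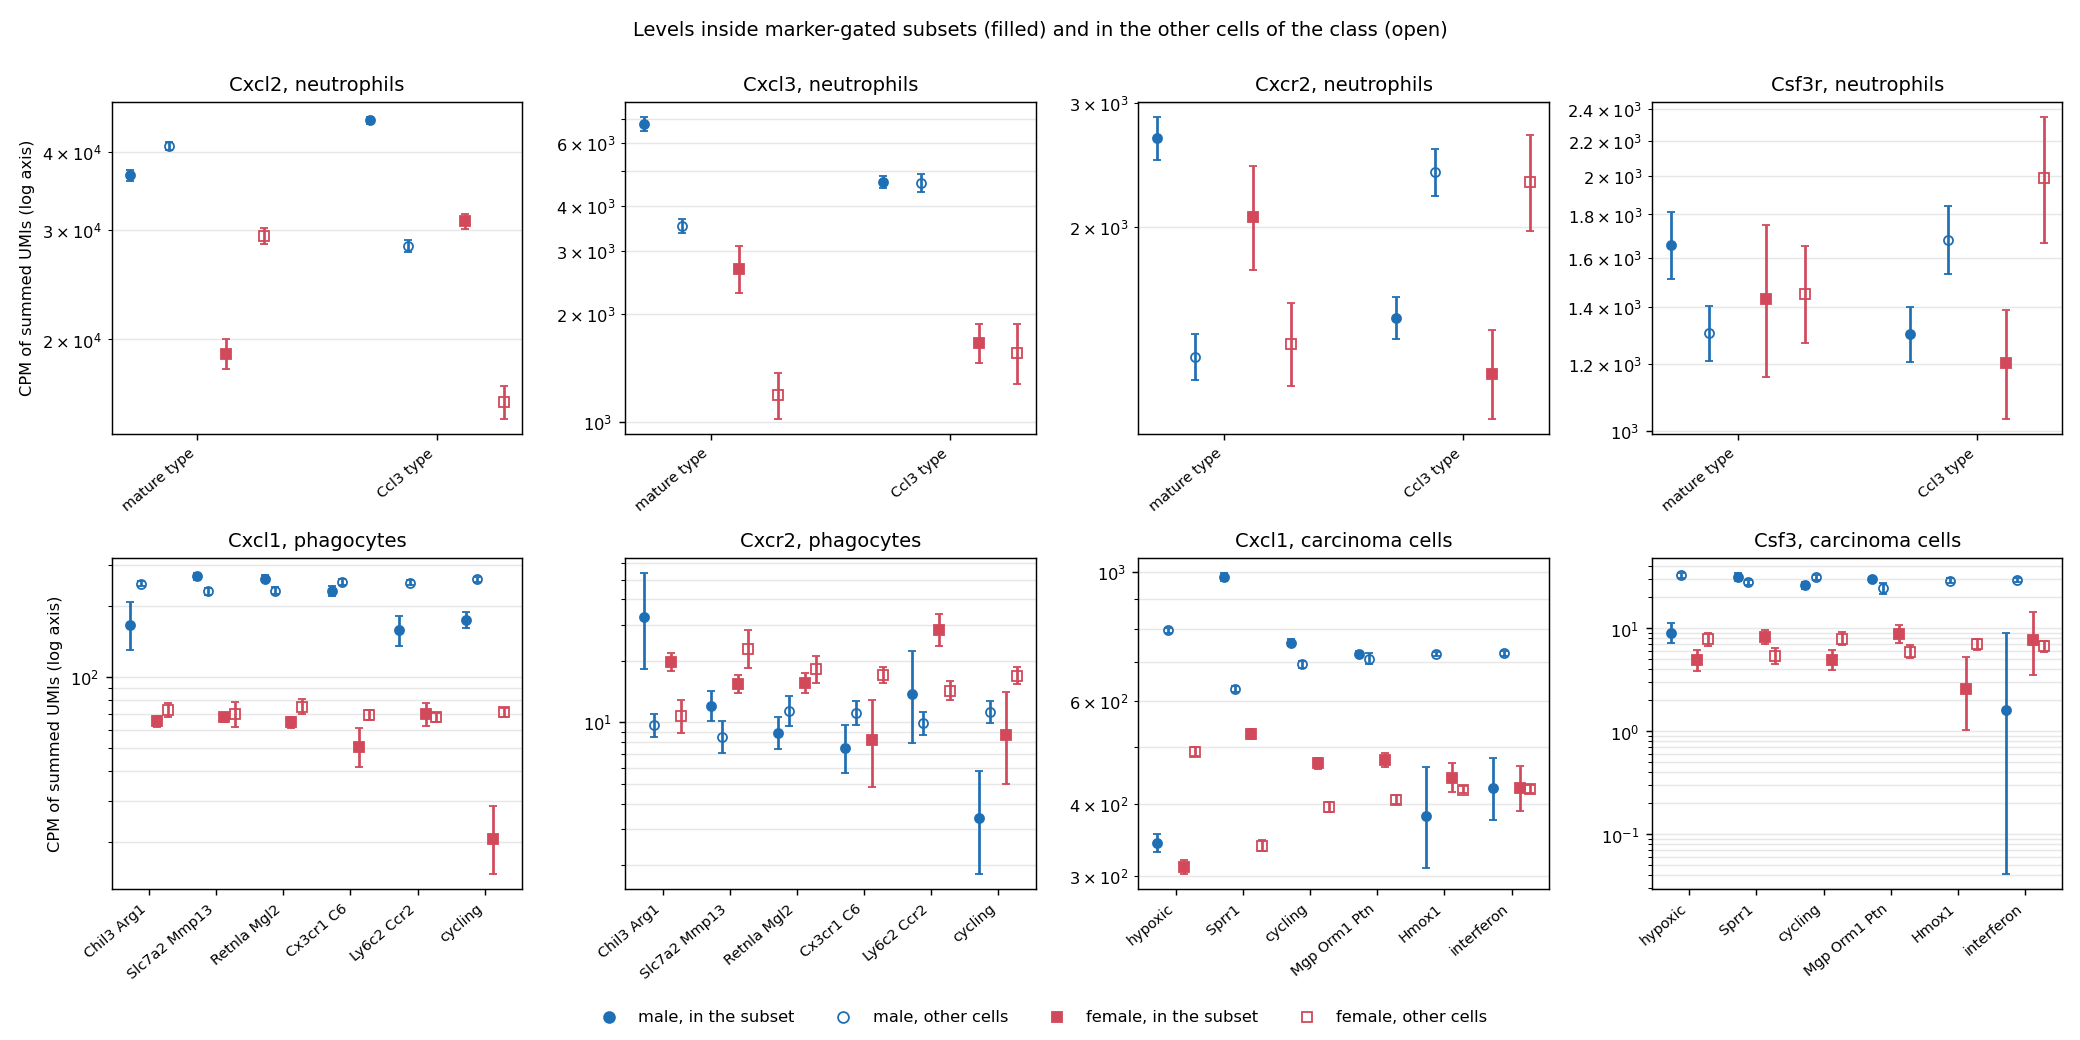
CPM of summed UMIs (log axes, 1 range a panel) inside marker-gated subsets (filled) and in the other cells of the class (open), male as circles left of female as squares, with 95% Poisson intervals and parts under 20 cells or with 0 UMIs left out. Cxcr2 and Cxcl3 stand higher in the mature neutrophil type than in the rest in both libraries, and Cxcl1 stands lower in hypoxic carcinoma cells than in the rest.

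Among phagocytes, the male excess of Cxcl1 was present in all 6 subsets compared. The male:female ratio ran from 2.27 (1.88 to 2.73) in the Ly6c2 and Ccr2 subset, with markers of monocytes, to 8.49 (6.12 to 12.1) in cycling cells. Cycling phagocytes had 175 CPM in the male library, against 20.7 CPM in the female one. For Cxcl2 and Cxcl3 the excess was smaller outside the subset with Slc7a2 and Mmp13. There the ratios were 1.15 (1.13 to 1.19) for Cxcl2 and 1.23 (1.09 to 1.40) for Cxcl3, against 1.88 (1.85 to 1.91) and 3.20 (2.97 to 3.44) within it. That subset took 951 of 2403 male and 2222 of 2918 female phagocytes.

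The male:female ratio of phagocyte Cxcr2 depended on how the phagocytes were split. Cells with Chil3 and Arg1, genes of alternatively activated macrophages, numbered 48 in the male library, against 1511 in the female one. Cxcr2 was at 32.8 CPM in these male cells, from 15 UMIs, and 9.70 CPM in the other male phagocytes. It was at 19.7 CPM in these female cells and 10.8 CPM in the other female phagocytes. Outside the subset the male:female ratio was 0.900 (0.719 to 1.13), an interval that holds 1, and within it 1.66 (0.920 to 2.78). Cells with Ly6c2 and Ccr2 had 13.8 CPM in the male library, against 28.4 CPM in the female one. The male:female ratio was 0.487 (0.270 to 0.823) in these cells and 0.694 (0.588 to 0.820) outside them. It was 0.779 (0.638 to 0.947) in the Slc7a2 and Mmp13 subset and 0.371 (0.280 to 0.494) outside it.

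Csf3 in male phagocytes was higher in the Cx3cr1 and C6 subset, at 10.3 CPM against 4.03 CPM in the rest. In the female library the 165 cells of this subset had 0 UMIs, with an upper bound of 1.67 CPM, and the rest had 26 UMIs, or 0.970 CPM. In phagocytes thinned to 500 UMIs, Cxcl2 was seen in 74.7% of male cells with Cxcl1 and 49.3% of those without, and in 69.8% and 38.6% of female ones. Cxcl3 was seen in 11.6% of male phagocytes with Cxcl1 and 4.70% of those without, and in 5.50% and 2.43% of female ones.

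Carcinoma cells with the hypoxia genes Adm and Ero1l had less Cxcl1 and Csf3 than the rest. The subset had 717 male and 1274 female cells. Cxcl1 was at 342 against 794 CPM in males, and 311 against 492 CPM in females. Csf3 was at 9.13 against 32.8 CPM in males, and 4.95 against 7.81 CPM in females. The male:female ratio of Cxcl1 was 1.10 (1.05 to 1.15) in hypoxic cells and 1.62 (1.58 to 1.65) in the rest. That of Csf3 was 1.84 (1.33 to 2.56) and 4.20 (3.62 to 4.90), and that of Cxcl3 1.51 (1.40 to 1.63) and 1.81 (1.74 to 1.88). Cxcl2 went the other way, with a ratio of 1.79 (1.71 to 1.88) in hypoxic cells and 1.60 (1.56 to 1.63) in the rest.

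Cells with both squamous genes Sprr1a and Sprr1b had more of the chemokines. Cxcl1 was at 982 against 629 CPM in males, and 526 against 339 CPM in females. Cxcl2 was at 760 against 483 CPM and 395 against 245 CPM. Both differences ran the same way in each library. The male:female ratio of Cxcl1 was 1.87 in these cells and 1.86 in the rest.

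Small carcinoma subsets did not show the male excess of Cxcl1. Cells with the interferon genes Isg15 and Ifit3, 51 male and 106 female, had 425 CPM of Cxcl1 in both libraries, a ratio of 1.00 (0.858 to 1.16). Cells with Hmox1, 30 male and 280 female, had 381 and 444 CPM, a ratio of 0.859 (0.694 to 1.05). Cells with Fgb were seen only in the male library (59 cells), where Csf3 was at 87.0 CPM against 28.3 CPM in the rest and Cxcl1 at 105 CPM against 729 CPM.

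The ligands occurred together in carcinoma cells. Thinned to 500 UMIs, Cxcl2 was seen in 31.0% of male cells with Cxcl1 and 12.8% of those without, and in 21.3% and 9.21% of female ones. Csf3 was seen in 2.33% of male cells with Cxcl1 and 0.993% of those without, and in 0.726% and 0.236% of female ones.

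Across 17 class and library sums of at least 20 cells, the genes with the most similar pattern were ranked by Pearson correlation of log2(CPM + 10) among 12522 genes, as a description. The sums share libraries and depth. For Cxcr2 the nearest were Trem3, Sycp2 and Ptgs2os2 (r = 0.987 each), and for Csf3r they were Fpr2 (0.991), Trem3 (0.983) and Clec4d (0.982). For Cxcl2 they were Tgm1 (0.959), Fpr2 (0.955) and Rffl (0.954), and for Cxcl3 Ly6g (0.936), Cfap43 (0.9301) and Pfkfb4 (0.922). For Cxcl1 they were Itga5 (0.921), Dram1 (0.909) and Col15a1 (0.907), and for Csf3 Sgms2 (0.918), P2ry2 (0.895) and Peli2 (0.882). Among the 6 genes, Cxcr2 and Csf3r had r = 0.960 and Cxcl2 and Csf3r had 0.938, whereas Cxcl1 and Cxcr2 had 0.00447 and Cxcl1 and Cxcl2 had 0.307.

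Other genes of the pathway were read from a list of 34, covering further Cxcr2 ligands and receptors, inducers such as interleukin 1 and their receptors, NF-kB regulators, and G-CSF signalling, with at least 20 UMIs asked of a gene. In neutrophils 22 passed, and 0 were higher by 2-fold or more in males and 1 in females, against 5.73% and 8.33% of all genes with 20 UMIs. That gene was Cxcr1, one of the further receptors on the list. It was at 25.6 CPM in male and 62.6 CPM in female neutrophils, a ratio of 0.409 (0.198 to 0.869) from 21 and 14 UMIs. The largest ratios were those of Nfkbia, which encodes an inhibitor of NF-kB and is one of its targets, at 1.60 (4332 and 2702 CPM), and Nfkbiz at 1.37 (2345 and 1709 CPM). The next lowest ratio after Cxcr1 was that of the interleukin 17 receptor gene Il17ra, at 0.636 (137 and 215 CPM).

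In phagocytes 26 of the 34 passed, with 2 higher by 2-fold or more in males and 0 in females, against 3.03% and 3.62% of all genes. These were Nfkbiz, a nuclear co-activator of NF-kB targets, at 192 and 69.4 CPM, a ratio of 2.76, and Il1b, which encodes interleukin 1 beta, at 3899 and 1931 CPM, a ratio of 2.02. The lowest ratios were those of the interleukin 1 receptor gene Il1r1 at 0.529 (3.49 and 6.58 CPM) and the macrophage growth factor gene Csf1 at 0.647 (54.5 and 84.3 CPM). The median log2 ratio of the list was 0.09 in neutrophils, 0.05 in phagocytes and -0.04 in carcinoma cells.

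In carcinoma cells 27 of the 34 passed, with 4 higher by 2-fold or more in males and 2 in females, against 3.94% and 3.77% of all genes. Cxcl15, also called lungkine, which lies between Cxcl3 and Cxcl1 on chromosome 5 at 90794534 to 90803067, had 483 male and 10 female UMIs, or 8.63 and 0.246 CPM, a ratio of 35.1 (18.9 to 73.6). Csf2rb, the common beta chain of the receptors for GM-CSF and related cytokines, was at 11.3 and 2.51 CPM, a ratio of 4.49. Of the other 2 higher in the male library, Ppbp was at 0.894 and 0.246 CPM and Cxcl5 at 2.09 and 0.911 CPM, both ligands of Cxcr2. Lower in the male library were Cxcl12, at 0.0715 and 0.812 CPM from 4 and 33 UMIs, and Il1a, at 0.0894 and 0.616 CPM from 5 and 25 UMIs. Il1r1, which encodes a receptor for interleukin 1, was at 135 CPM in male and 137 CPM in female carcinoma cells. Whether interleukin 1 acted on these cells was not tested.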

How the data were processed

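Live cells of MB49 tumours were sorted on CD45 and sequenced as BD Rhapsody whole-transcriptome libraries with UMIs, per the labels' protocols. Build mm10 and the tools CASAVA 1.8, UMI-tools and Seurat are named by the submitters' processing notes. Not given in the sources used here were the aligner and whether doublets had been removed. In the deposited matrices are whole-number UMI counts per gene and cell, not normalized.

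The cell filter was 500 or more UMIs, 250 or more genes and no more than 25% mitochondrial UMIs, which kept 19375 of 22115 barcodes. Each cell was gated from fixed marker lists, with thresholds set on the markers alone after the data were seen. No doublet caller was run, and 190 cells that passed gates that exclude each other were kept out of the classes. A further 2874 cells (14.8%) passed no gate. UMI counts were summed per class and library and given as CPM, with exact Poisson intervals, exact conditional binomial intervals for ratios and Clopper-Pearson intervals for shares (Python 3.11.15, numpy 2.4.6, scipy 1.17.1, pandas 2.3.3). Counts of 0 were given a limit of 3 counts. UMIs of 1 cell are not independent, so the share held by the top cell or the top 10% of cells is given. Shares were also computed with each cell thinned to 500 UMIs. No p-value was computed, since each group is 1 library. Genes counted against the background had at least 100 UMIs and at least 10 CPM, and pathway genes at least 20 UMIs. Alternatives were stricter and looser cell filters, stricter gates, Leiden clusters made without the 6 genes (scanpy 1.11.5, leidenalg 0.10.2), 2 other normalizations, removal of the 5% of cells with most UMIs or of the top cell, and subtraction of free neutrophil RNA.

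The text names the 6 genes, pathway genes past 2-fold with the most UMIs, those with the 2 largest or 2 smallest ratios, and the 3 genes most like each of the 6. The genes and lists were chosen with earlier results of these data known. The subsets, fibroblasts and pericytes described were selected after their values were seen. The ratio code was tested on simulated data.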

Additional observations from a re-analysis of the deposited data

Results flagged for a closer look

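With the gates used here, Cxcr2 had a male:female ratio of 0.615 in phagocytes and 1.14 in neutrophils, with counting intervals on either side of 1. The difference between the classes was not tested, since each sex had 1 library. Neither value is settled: clusters in place of gates gave a log2 ratio of -0.12 (-0.28 to 0.04) in neutrophils, the direction of phagocytes, and stricter gates gave -0.084 (-0.36 to 0.19) in phagocytes. With neutrophil RNA subtracted the phagocyte ratio was 0.209. Among carcinoma cells, Cxcl2 had a male:female ratio of 0.690 (0.509 to 0.916) in the 30 male and 280 female cells with Hmox1, a haem-degrading stress gene, and 1.77 in the other carcinoma cells, and this difference was not tested. Csf3 had a ratio of 8.71 (1.45 to 355) in neutrophils with Ccl3 and related cytokine genes and 0.0426 in the other neutrophils. It had a ratio of 0.269 (0.0773 to 0.967) in neutrophils of the mature type and 7.39 in the rest. Both Csf3 splits rest on 32 male and 7 female UMIs, 85.7% of the female ones in 1 cell, and were not tested.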

How the results depend on the processing

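No paired analysis was possible because each group is 1 library and the result comes from no test. Of 93 alternative values of 11 male:female ratios, 72 stayed within the counting interval of the ratio. Another 16 left it in the same direction and 5 changed sign. Of these 5, 4 were for Csf3r in neutrophils, whose ratio is near 1 with the gates used here. Outside Csf3r, 3 moved by over 1.5 times, all for Cxcr2 in phagocytes. The alternatives for Cxcr2 and Csf3 in phagocytes and for cDC2 were chosen after seeing the data. All values here are log2 male:female ratios. In phagocytes Cxcl1, at 1.87, was 1.71 as a mean over cells and 1.72 without the 5% of cells with most UMIs. Cxcl2, at 0.69, was 0.64 with Leiden clusters, 0.71 when divided by the median ratio, 0.59 as a mean over cells and 0.66 without the 5% of cells. Cxcl3, at 1.23, was 1.03 with clusters, 1.12 as a mean over cells and 1.14 with neutrophil RNA subtracted. Cxcr2, at -0.70, was -0.084 with stricter gates, -1.30 with clusters and -2.26 with neutrophil RNA subtracted. Csf3 in phagocytes stayed within its interval in all 9 alternatives run. In neutrophils clusters gave 0.32 for Cxcl2, 1.23 for Cxcl3, -0.12 for Cxcr2 and -0.39 for Csf3r, against 0.59, 1.52, 0.18 and -0.02. Csf3r was 0.0033 at 1000 UMIs or more per cell, 0.18 with stricter gates, 0.012 when divided by the median ratio and 0.0077 without the top cell. In carcinoma cells Cxcl1, at 0.77, was 0.71 as a mean over cells, and Csf3, at 2.11, was between 2.11 and 2.21 in all alternatives run. The cause of these moves was not tested. Subtraction of neutrophil RNA was not run for carcinoma cells, since the CD45- libraries hold 2 male and 0 female gated neutrophils to scale it by. In cDC2, Cxcl2, at 1.21, was 2.06 with free RNA subtracted, and the same could not be given for Cxcl1, whose female level was below the estimate. Thinned to 1000 in place of 500 UMIs, Cxcr2 was seen in 66.0% of male and 61.3% of female neutrophils and Cxcl3 in 65.1% and 36.5%. With genes of 20 UMIs in place of 100, the share past 2-fold in either direction was 14.1% in place of 4.19% in neutrophils, 6.66% in place of 3.03% in phagocytes and 7.71% in place of 3.02% in carcinoma cells. Depth limits Csf3 outside carcinoma cells and phagocytes and all receptor values outside neutrophils, phagocytes and cDC2.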

Other observations

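Fibroblasts held further genes of neutrophil traffic. Cxcl5, a Cxcr2 ligand made by epithelial and stromal cells, had 252 UMIs, or 449.7 CPM, in the 54 female fibroblasts, against 0 UMIs in the 18 male fibroblasts. Cxcl12, which holds neutrophils in the bone marrow through Cxcr4, was at 131 CPM in male and 571 CPM in female fibroblasts. Cxcr4 was at 566 CPM in male and 783 CPM in female neutrophils. Il1r1 was at 199 CPM in male and 376.5 CPM in female fibroblasts.

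Cells of the other gate carried the ligands too. The 39 male carcinoma cells found in the CD45+ library had Cxcl1 at 524 CPM and Csf3 at 55.8 CPM, with 1 cell holding 87.0% of the 23 Csf3 UMIs. In the CD45+ libraries the cells that passed no gate held 12.8% of male and 34.4% of female Cxcl1 UMIs, with 1 female cell holding 20.2% of the female UMIs of those cells. The 13 female endothelial cells had 12 Csf3 UMIs, or 133 CPM, and the 11 male ones had 1 UMI.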
